A study of Mus musculus with 8 samples.

Results

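The regions described here are the stretches of open chromatin shared by 3 libraries of control leukemic progenitors, FL 1, FL 2 and FL 3, in which the chromatin protein DEK is intact. Peaks of the 3 lists on the 19 autosomes and X were merged wherever they shared at least 1 bp, which gave 101290 union regions. A peak from each of the 3 lists was present in 37966 of them (37.5%), and these shared regions are the set described below. The 8 libraries of the whole series gave 138385 union regions, and the 5 libraries with mutant Dek were used for that total only. Shared regions were ranked by their mean percentile, where the percentile of a peak is its rank by −log10 q inside its own list and 100 is the strongest peak.

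All 3 libraries came from mice with acute myeloid leukemia driven by MLL-AF9. Leukemic granulocyte-macrophage progenitors (L-GMPs), the fraction that the labels call leukemia stem cells, were sorted from bone marrow as Lin-, Sca-1-, c-Kit+, CD16/32+ and CD34+ cells. FL 1 and FL 2 are labelled Dek fl/fl, with floxed alleles and no Cre, and FL 3 is labelled Dek+/+, so the set joins 2 control genotypes. Each reaction took about 5000 cells and 13 to 16 cycles of PCR. The labels give no age or sex. FL 3 has another genotype than FL 1 and FL 2, and the labels do not say whether FL 1 and FL 2 came from separate animals, so the spread between those 2 may be technical.

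ATAC-seq uses a transposase that inserts sequencing adapters where DNA is not wrapped tightly in nucleosomes, so active promoters and enhancers tend to appear as peaks. MLL-AF9 fuses the DNA-binding part of the histone methyltransferase MLL to AF9, a subunit of elongation complexes, and is known to keep HOXA genes and MEIS1 active in progenitors that already carry a myeloid program. In normal granulocyte-macrophage progenitors that program rests on PU.1 (Spi1), C/EBPα (Cebpa) and RUNX1, and loci of the erythroid, lymphoid and non-blood lineages are mostly silent.

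The 3 lists differed in length, and FL 3 stood apart. FL 1 held 51510 peaks on the kept chromosomes, FL 2 held 54887 and FL 3 held 91586. The median peak was 320 bp wide in FL 1, 318 bp in FL 2 and 436 bp in FL 3. Read depth is unknown, and whether the length of the FL 3 list comes from depth, genotype or preparation cannot be told apart. Because of this length a shared region sits higher in FL 3 than in the other lists, with a median percentile of 62.0 in FL 1, 64.3 in FL 2 and 78.5 in FL 3.

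The lists agreed almost fully on their strong peaks and little on their weak ones. Of the FL 1 regions between the 90th and 100th percentile of that list 100% were in all 3 lists, against 24.4% of those in its lowest 10 percentiles. In FL 2 the share went from 100% to 13.8%, and in FL 3 from 99.7% to 3.61%. FL 3 alone held 40216 regions, FL 1 alone 3282 and FL 2 alone 5646. Regions that missed the set in only 1 list were weaker than members. FL 2 and FL 3 shared 7290 regions without FL 1, with a median percentile of 35.8, and FL 1 and FL 3 shared 6046 without FL 2, with a median of 34.3. FL 1 and FL 2 shared only 844 without FL 3, with a median of 27.3, while the members themselves had a median of 66.5.

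**Figure D1:**
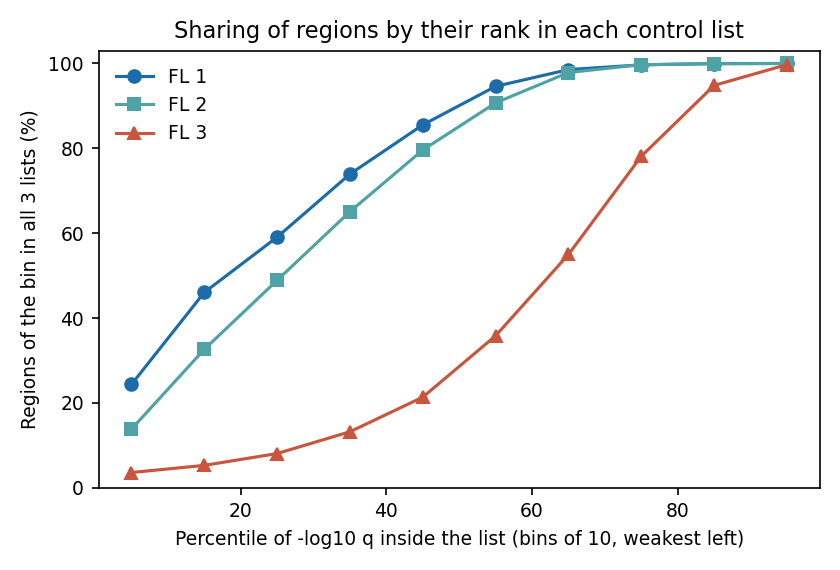
Percent of each list's regions that were found in all 3 lists (vertical axis) by the percentile of −log10 q inside that list (horizontal axis, bins of 10), with 1 line per library. FL 1 and FL 2 pass 90% in the bin from 50 to 60, while FL 3 reaches 94.8% only in the bin from 80 to 90.

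Measured by bases, FL 1 and FL 2 were the closest pair. The covered bases that they shared made up a Jaccard index (shared over joint bases) of 0.605, against 0.356 for FL 1 and FL 3 and 0.365 for FL 2 and FL 3. With each list cut to the 51510 strongest peaks, the index was 0.621, 0.423 and 0.432 for the same pairs. Over the 37966 shared regions the percentiles of FL 1 and FL 2 had a Spearman correlation of 0.90, and each had 0.78 with FL 3. These correlations describe regions, which are not independent replicates. The position of the signal agreed closely in every pair. The median distance between summits was 18 bp, and between 79.2% and 80.4% of the summits lay within 50 bp of each other.

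Most shared regions lay away from the ends of genes, but the strongest ones lay at them. A region counted as a gene end region when its summit was within 1 kb of either end of a protein-coding gene. By that rule 10481 shared regions (27.6%) were at gene ends, 14845 (39.1%) were inside a gene and 12640 (33.3%) were between genes. The median percentile was 85.6 at gene ends, 60.96 inside genes and 59.7 between genes. From the weakest to the strongest decile of shared regions the share at gene ends went from 15.1% to 77.7%, and the median width from 469 to 1102 bp. Among the 405 regions with a mean percentile of at least 99, 341 (84.2%) were at gene ends.

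**Figure D2:**
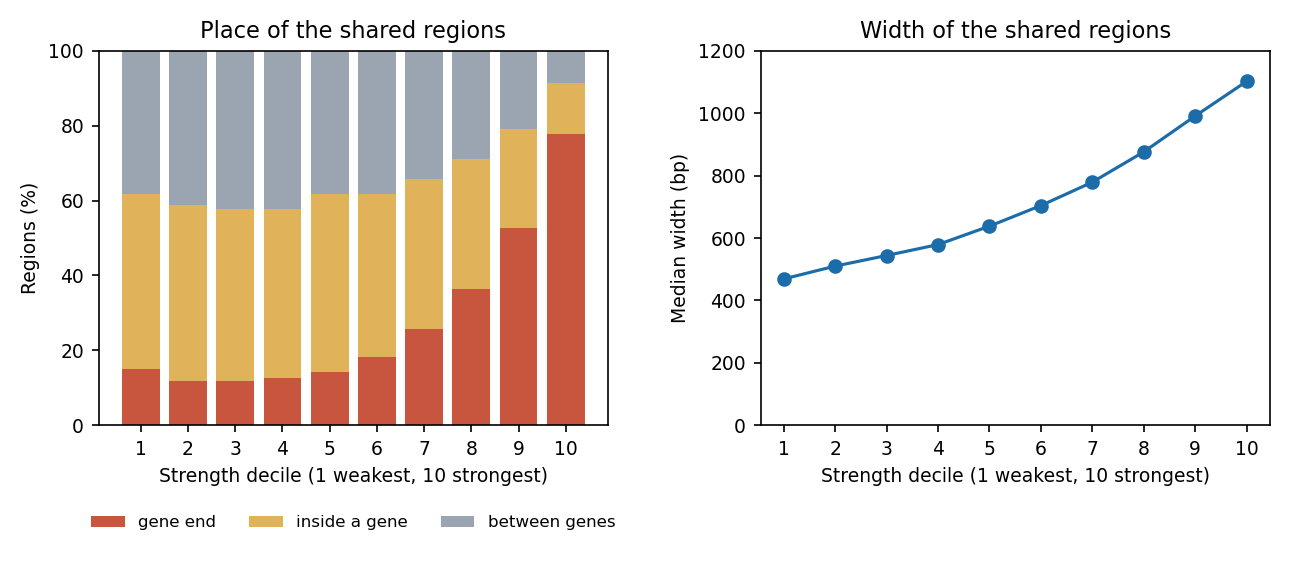
Left, percent of shared regions at gene ends, inside genes and between genes (vertical axis) in each strength decile (horizontal axis, 10 is the strongest). Right, median width in bp for the same deciles, which rises from 469 to 1102 bp.

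The spread of the percentile over the 3 lists was smallest in the strongest regions. Its median SD was 15.8 in the weakest decile, 19.5 in the second weakest and 1.37 in the strongest, where the scale has its upper limit. The deciles rest on the mean of the same percentiles, so a small SD in the strongest decile follows from the ranking and measures no agreement. At gene ends the signal sat just before the start of transcription. Where a start of the promoter table was within 1 kb (7580 of the 10481 gene end regions), the median summit lay 38 bp upstream of it, with quartiles 90 bp upstream and 3 bp downstream. A start also lay within 1 kb of 1344 of the 27485 distal regions (4.89%), since genes have further starts inside their spans.

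The strongest gene end regions are described by gene, with no theme tested. Lars2, the mitochondrial leucyl-tRNA synthetase, led the rank with a region of 548 bp (chr9:123461716-123462263) and percentiles of 99.98, 99.98 and 99.99 in FL 1, FL 2 and FL 3. Ccnyl1, a cyclin-Y-like protein, followed with percentiles of 99.96, 99.97 and 99.96 over 1127 bp (chr1:64690276-64691402). Gatad2b, a subunit of the NuRD chromatin remodelling complex, came next with 99.97, 99.96 and 99.92 (chr3:90292307-90293479). The Lars2 region was about as narrow as the outstanding distal regions described further on, and its summit lay 665 bp inside the gene. No start of the promoter table lay within 1 kb of this summit, so the region cannot be placed at the Lars2 promoter.

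Protein quality control and stress response were represented by Sel1l, an adaptor of the ubiquitin ligase that clears misfolded proteins from the endoplasmic reticulum, and Dnajc3, a chaperone partner of the same compartment. Sel1l had percentiles of 99.895, 99.98 and 99.97 and Dnajc3 had 99.94, 99.89 and 99.91. Regulators of RNA and protein turnover followed, with Rc3h1 (roquin), which destabilises inflammatory mRNAs, at 99.87, 99.94 and 99.96. Fbxw7, the ubiquitin ligase subunit that targets MYC and cyclin E, stood at 99.95, 99.89 and 99.82. Ripk2, the kinase downstream of NOD receptors, had 99.98, 99.98 and 99.76. The others of the 15 strongest were Papss1, Ntmt1, Trappc9, B3gntl1, Hmgcs1, an enzyme of cholesterol synthesis, Casp8ap2 and Rbm27, with mean percentiles between 99.89 and 99.94. Their ranges over the 3 lists overlapped, so the order among these genes is not resolved.

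The rank depends on the measure that is used. By −log10 p the same 100 gene end regions came first, and by the lowest of the 3 percentiles 86 of them did. By fold enrichment only 10 of the 100 strongest gene end regions and 27 of the 100 strongest distal regions remained.

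Promoter sequences are shown for the strongest gene ends because the rule did not use sequence. The following are the 200 bases before the annotated start (RefSeq, GRCm38.p6), 5′ to 3′ on the gene's strand, of the 3 strongest gene ends whose outermost start is in the promoter table. Capitals mark matches to the motifs listed afterwards.
Gatad2b, chr3:90292981-90293180, plus strand: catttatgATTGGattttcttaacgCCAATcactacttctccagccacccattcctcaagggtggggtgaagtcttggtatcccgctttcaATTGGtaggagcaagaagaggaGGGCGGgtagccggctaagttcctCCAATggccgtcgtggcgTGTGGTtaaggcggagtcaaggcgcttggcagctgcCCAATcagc
Sel1l, chr12:91849158-91849357, minus strand: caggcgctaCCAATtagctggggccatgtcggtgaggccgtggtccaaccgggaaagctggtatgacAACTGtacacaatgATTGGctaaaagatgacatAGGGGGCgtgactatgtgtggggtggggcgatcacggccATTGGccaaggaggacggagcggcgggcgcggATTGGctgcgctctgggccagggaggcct
Rc3h1, chr1:160906211-160906410, plus strand: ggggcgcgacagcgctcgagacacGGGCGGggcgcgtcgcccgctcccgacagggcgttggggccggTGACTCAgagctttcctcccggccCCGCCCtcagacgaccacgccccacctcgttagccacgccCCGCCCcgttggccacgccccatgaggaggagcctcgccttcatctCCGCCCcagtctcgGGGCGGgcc

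The Gatad2b window held 5 copies of the CCAAT box, the site of the general promoter factor NF-Y, on either strand, and the Sel1l window held 4. The Rc3h1 window held none and instead had 5 copies of GGGCGG, the GC box bound by SP and KLF factors. Motif letters were searched on both strands in 21044 windows of 300 bases (250 before and 50 after a start) of 17273 protein-coding genes, or 79.9% of all of them. Of these windows 10664 (50.7%) overlapped a shared region, and 8930 (42.4%) overlapped no region of any of the 3 lists.

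CCAAT boxes were most frequent in the strongest promoters. CCAAT was found in 38.5% of all windows, in 38.6% of those inside shared regions and in 39.5% of those without a region. Inside shared regions it went from 27.7% of windows in the weakest strength decile to 37.4% in the ninth and 52.7% in the strongest, and 28.1% of the windows in the strongest decile held it more than 1 time. The median GC content was 63.7% in the strongest decile and 61.3% in the weaker 50% of regions, and among windows with 60 to 70% GC the CCAAT share was 52.4% and 27.5%. GGGCGG followed the open state itself, with 19.04% of the windows without a region, 69.3% of those inside shared regions and 78.6% in the strongest decile. GC content moved with it, with a median of 48.7% in windows without a region, and its part in this difference was not tested.

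**Figure D3:**
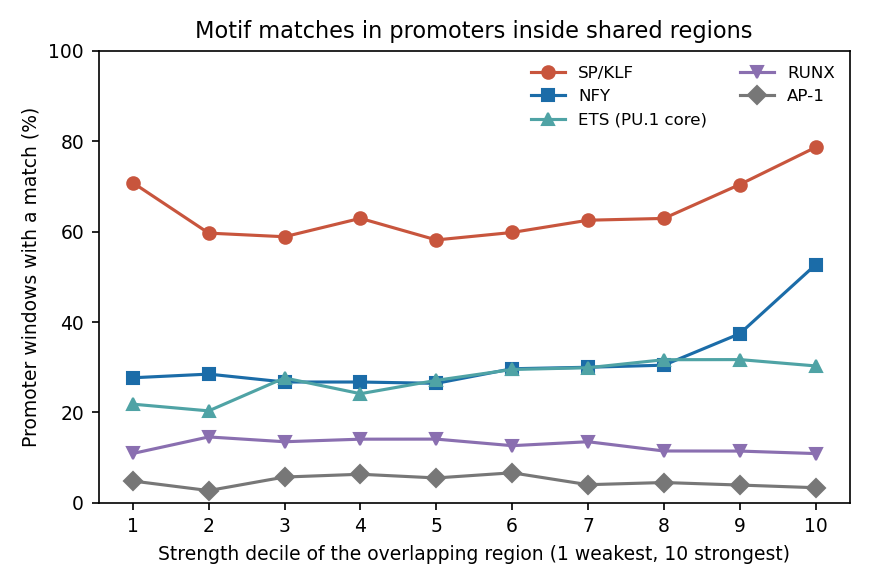
Percent of promoter windows of 300 bases that hold a match (vertical axis) by the strength decile of the shared region that they overlap (horizontal axis, 10 is the strongest), for 5 motifs. The CCAAT line (NFY) stays between 26.4% and 30.4% up to decile 8 and reaches 52.7% in decile 10.

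Motifs of lineage factors had no such rise in the strongest decile, although the ETS core rose over the weaker ones. This core, GGAAGT, part of PU.1 sites, was in 24.97% of all windows, 29.7% of those in shared regions and 19.3% of those without a region. Its share was 21.8% in the weakest strength decile, 31.7% in the ninth and 30.3% in the strongest. The longer PU.1 form GAGGAAGT, which contains the core, was in 3.15% of all windows, in 2.83% of the strongest decile and in 4.82% of windows in the weaker 50% of shared regions. Matches for RUNX (TGTGGT), C/EBP (TTGCNNAA), AP-1 (TGANTCA) and the GATA factors (letters AGATAA) were all less frequent in shared regions than in windows without one. For the GATA factors the shares were 5.14% and 15.4%, and for AP-1 they were 4.18% and 10.3%. MYC E-boxes (CACGTG) went the other way, with 10.98% and 4.55%, as did NRF1 (GCGCATGCG) with 4.08% and 0.526%, YY1 (AAGATGGC) with 4.87% and 1.24% and CRE (TGACGTCA) with 3.50% and 0.862%. The remaining motifs searched were IRF (GAAANNGAA), MEIS/TGIF (TGACAG), the CTCF core (AGGGGGC) and MYB (AACTG), found in 8.09%, 18.3%, 13.0% and 41.9% of all windows. Short letters match by base composition alone, so a match marks no bound site.

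Among distal regions a small group of very narrow and very enriched ones came first. The strongest of all lay between genes, 29417 bp from Rpusd4 (chr9:35305140-35305673, 534 bp), at percentiles of 100, 100 and 100 after rounding and a fold enrichment of 25.9, 25.3 and 26.1 in FL 1, FL 2 and FL 3. Regions inside Cdk8, Filip1l, Chl1 and Zc3h7a and regions near Axin2 and Cr2 were alike, with widths of 422 to 704 bp and mean folds of 20.8 to 30.2. Of the 10 strongest shared regions, 9 were under 750 bp wide with a mean fold of at least 18. Only 37 of the 37966 shared regions had that form, 33 of them distal. This form was set apart after the values were seen. The deposited lists do not say whether regions of known high background were removed, such a list was not used here, and its part in these regions was not tested.

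Regions are named only with a coding gene within 100 kb, without predicted genes and with 1 region per gene. Among the first 15 such distal regions, those not of the narrow form were 884 to 1683 bp wide, with mean folds of 10.8 to 18.5. Among those left out by this limit were 2 of the narrow form. They were chr3:5860268-5860900, at rank 2 of all shared regions with a mean fold of 22.9, and chr12:3109787-3110203, at rank 11 with 27.7. Also left out was a region at chr2:98666210-98667369 of 1160 bp, at a mean percentile of 99.97 with a mean fold of only 6.49. A region 24184 bp from Rpp21 had percentiles of 99.99 in each list over 896 bp. The next of the named ones was a region of 1619 bp near Ly6c2, a surface antigen of monocytes and their progenitors, at 99.905, 99.96 and 99.77 (chr15:75085471-75087089, 21294 bp outside the gene). Glis2, a zinc finger factor that is a fusion partner in childhood megakaryoblastic leukemia, had a region 7528 bp away at 99.97, 99.94 and 99.69 (chr16:4586264-4587147). The region nearest to Wnt7b, at 99.87, 99.78 and 99.68, lay 28 bp from an end of the long non-coding RNA gene D130051D11Rik. Pkd1, Tead4, Tbc1d14 and Epm2a completed the 15 strongest distal genes, and Epm2a was again of the narrow form with 388 bp and a mean fold of 24.3. The Pkd1 region lay 49 bp upstream of a Pkd1 start inside the span, and the Tbc1d14 region 420 bp downstream of a Tbc1d14 start. Both count as distal only by the rule of gene ends.

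**Figure D4:**
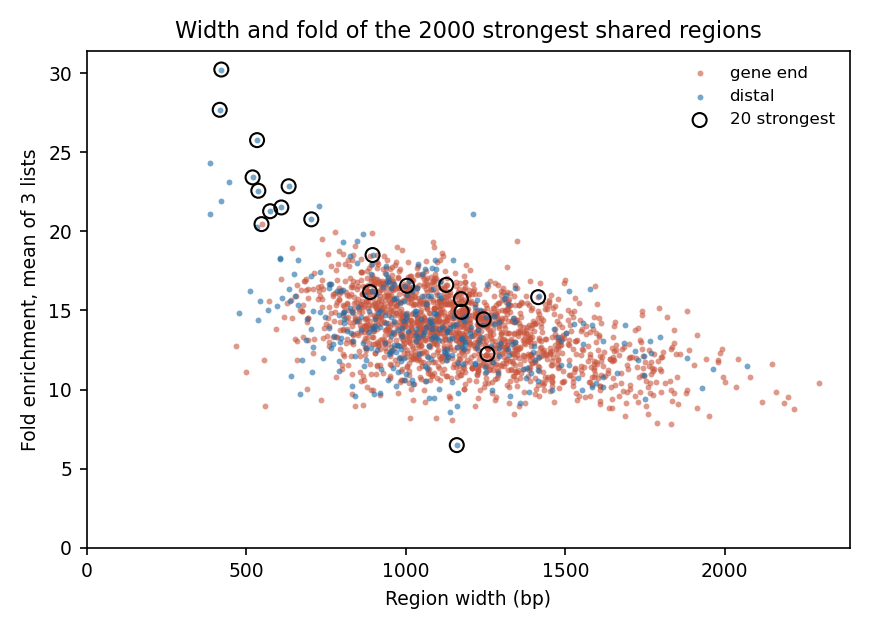
Width in bp (horizontal axis) and mean fold enrichment of the 3 lists (vertical axis) of the 2000 strongest shared regions, with gene end regions in red and distal regions in blue. Circles mark the 20 strongest, of which the 10 with a mean fold above 20 are 417 to 704 bp wide.

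Further down the distal rank, chosen after the values were seen, were regions inside Inpp5k, a phosphoinositide phosphatase, Hdac4, a histone deacetylase, Usp34, a deubiquitinase, and Fdft1, squalene synthase. Inpp5k had percentiles of 99.92, 99.94 and 98.82, Hdac4 99.39, 99.65 and 99.55, Usp34 99.84, 99.91 and 98.82 and Fdft1 99.65, 98.98 and 99.88. Pcgf5, a Polycomb subunit, and Rps6ka2, a ribosomal S6 kinase, followed with means of 99.46 and 99.45. All of these but Fdft1 lay within 1 kb of a start inside the gene's span. Starts of transcripts were common among strong distal regions. Of the 200 strongest, 72 had a coding start of the promoter table within 1 kb and 30 had an end of a non-coding gene, against 18 and 17 of the 200 weakest.

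The genes with most shared regions were long. A region was assigned to its nearest protein-coding gene within 100 kb, and the median gene had 1 shared region while 35.8% of genes had 0. Foxp1, a forkhead repressor active in B cells and myeloid progenitors, had 33 shared regions, from 43 regions in FL 1, 39 in FL 2 and 77 in FL 3. Gse1, a subunit of a histone demethylase complex, had 32, from 38, 41 and 63. Prex1, a Rac exchange factor of neutrophils, had 26, from 32, 31 and 45. Foxp1 and Gse1 kept the first places in lists of equal length, with 29 and 30 regions.

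Several genes known from leukemia were among the first 15. Etv6 and Runx1, transcription factors that are both fusion partners in leukemia, had 25 each, as did the chromatin and signalling genes Arid1b and Zmiz1. Runx1 drew on 26 regions in FL 1, 30 in FL 2 and 40 in FL 3, of which 14 shared regions lay inside the gene. Cmip and Tiam1 had 24, Asap1, Baz2b, Maml3 and Pde4d 23, and Wwox 22. Cdk6, the cell cycle kinase on which MLL-rearranged leukemia is known to depend, had 22 from 29, 24 and 50. Length goes with the count: genes with 10 or more shared regions had a median span of 147 kb against 17.3 kb for all genes. In lists of equal length, and also when only regions inside the gene counted, 12 of these 15 genes remained among the first 15. With lists of equal length Cdk6, Cmip and Maml3 dropped out.

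Counted per 10 kb of gene, short genes led, several of them early response genes. Cebpb, the C/EBP family member of emergency granulopoiesis, spans 1.52 kb and had 13 shared regions, from 14, 14 and 22. The strongest of them lay 63714 bp beyond the gene, with percentiles of 97.0, 97.4 and 97.7 (chr2:167753309-167754893), above the 70.7, 74.96 and 77.0 at its own end. Fos, an AP-1 subunit, had 15 shared regions for a gene of 3.39 kb, and Zfp36l2, an mRNA decay factor needed for blood stem cells, had 17 for 4.02 kb. Ier3, Tmsb10 and Rplp1 had 8 each, Hes1 10, Ccdc54 9, and Id1 and Zcchc13 5. For such short genes nearly every region lies outside the gene, so the assignment rests on distance alone.

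Across 16 gene lists, the ends of myeloid transcription factors, progenitor receptors, monocyte genes and dendritic cell genes were mostly open. Those of granule genes (7 of 16) and of erythroid, megakaryocyte, lymphoid, mast cell, stromal and non-blood genes mostly were not. Of all 21627 protein-coding genes, 11119 (51.4%) had a gene end region in all 3 lists. Using only starts of the promoter table the share was 53.9% (9310 of 17273). By that count myeloid transcription factors (10 of 10) and progenitor receptors (15 of 15) were open throughout. Monocyte genes (7 of 11, 63.6%) and dendritic cell genes (6 of 10, 60%) lay nearer to the share of all genes. Of all protein-coding genes 21.5% had no region of any FL list assigned to them. These are counts beside a background and were not tested. In a bulk sample, fewer cells with an open site and a less open site per cell cannot be told apart, and a site without a peak may be open below what these lists can show.

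**Figure D5:**
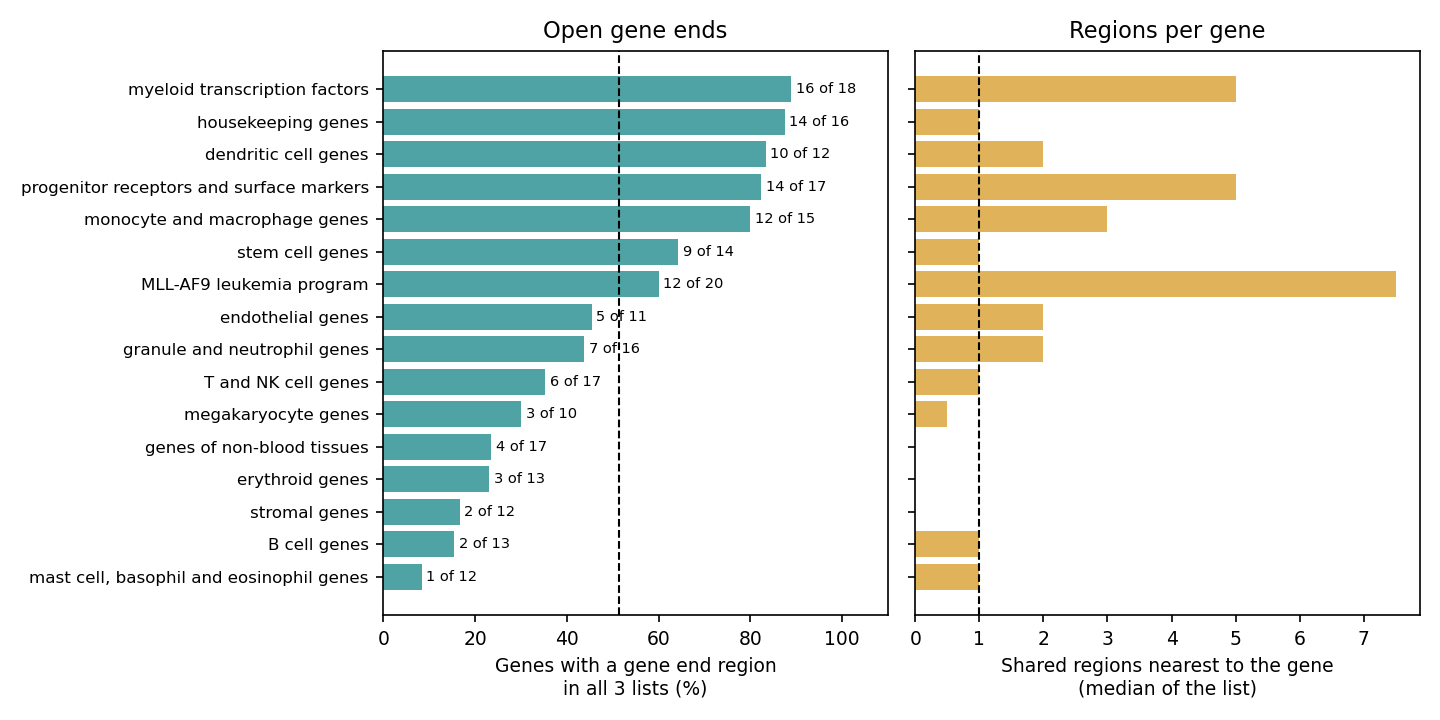
Left, percent of the genes of each list with a gene end region in all 3 libraries, with counts at the bars. Right, median number of shared regions nearest to the genes of the list. Dashed lines give all protein-coding genes (51.4% and 1 region). Myeloid transcription factors stand high in both panels, housekeeping genes only in the left and the MLL-AF9 program mainly in the right.

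The markers that the sort selected for had open starts, all with means below the median of 87.9 over all open gene ends. These means were 87.0 for Kit, 74.7 for Cd34 and 54.5 for Fcgr3. Among 17 progenitor receptors and surface markers, 14 had a gene end region in all 3 lists, and all 15 with a start in the table had a region there. Kit, the stem cell factor receptor used in the sort, had percentiles of 85.4, 89.1 and 86.5 at its start (chr5:75574606-75576257). Cd34, also used in the sort, had 83.7, 84.1 and 56.4 at its start and stronger values of 95.8, 94.9 and 95.3 at a region 10662 bp upstream. Fcgr3, which encodes CD16, had 44.3, 53.4 and 65.7 at a start inside its span and lies in a dense stretch of 10.5 shared regions per 100 kb. Ly6a, which encodes Sca-1 and was used to exclude cells, had no gene end region in any list and 1 shared region nearby. Of all 21627 protein-coding genes, 8157 likewise had no gene end region in any list.

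Cytokine receptors of the myeloid series were open as well. Il1rap, a surface protein of leukemia stem cells, led this list with 94.8, 96.2 and 96.0, followed by Kit, and Il3ra came next with 81.5, 85.6 and 89.0 and Il6ra with 79.5, 81.3 and 86.7. Csf2ra, Csf2rb, Csf2rb2, Cd44, Itga4, Cxcr4, Cd93 and Fcgr2b had means between 48.2 and 81.9. Csf2rb2 was uneven, at 34.8 and 43.8 in FL 1 and FL 2 and 89.6 in FL 3. Csf3r, Cd33 and Cd47 had no region within 1 kb of the ends of their annotated spans, but regions at a start of the promoter table inside the span with means of 74.0, 91.1 and 81.2.

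Of the 18 myeloid transcription factors, 16 had an open gene end, with a median of 5 shared regions per gene. Cbfb, the partner of RUNX1, was the strongest with percentiles of 94.9, 98.4 and 97.3, and Nfe2, a factor of megakaryocytes and erythroid cells, had 97.3, 98.4 and 94.6. Cebpa, the factor that makes granulocyte-macrophage progenitors, had 90.2, 91.2 and 93.3 at its start over 1866 bp (chr7:35118034-35119899). Cebpd had 91.7, 92.1 and 88.6. The median over all open gene ends was 87.9. Klf4, Runx1, Irf8, Etv6, Egr1, Spi1, Lyl1, Cebpb, Gfi1, Cebpe and Lmo2 had means from 86.3 down to 47.1. Ikzf1 and Fli1 had no region at the ends of their spans, and Ikzf1 had one at a start inside it, with a mean of 86.7.

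Several of these factors had strong regions away from the ends of their spans. Spi1 had 8 shared regions, and the strongest, at 92.0, 83.6 and 95.0, lay 14351 bp inside the annotated span (chr2:91096340-91097351), above the 80.8, 81.8 and 76.3 at its end. The RefSeq span of Spi1 includes a transcript from far upstream, so its outer end is not the usual promoter. Spi1 has no start in the promoter table, so the stronger region inside the span cannot be called distal to the usual promoter. A region 37.4 kb beyond the Cebpa start, where a myeloid enhancer of that gene is known, had 82.3, 86.8 and 88.2 (chr7:35156282-35157347) and was nearest to Slc7a10 by the distance rule. Irf8, a factor of monocytes and dendritic cells, had a region 54315 bp downstream of its start at 83.0, 89.8 and 89.7, above the 79.8, 89.3 and 79.5 at the start. Csf1r, the receptor of macrophage colony-stimulating factor with a known enhancer in an intron, had its strongest region of 94.1, 89.3 and 94.2 inside the gene, 3055 bp from the nearer end.

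The MLL-AF9 program had many regions per gene but not an open end at every gene. Of its 20 genes 12 had an open gene end, a share of 60% near the 51.4% of all genes, but the median gene had 7.5 shared regions, from 9.5 in FL 1, 11 in FL 2 and 20.5 in FL 3. These are long genes, and per 100 kb of span with 50 kb on both sides the median was 3.81 against 2.83 for all genes. That density is not particular to the program, since lists with few open ends had 4.96 (megakaryocyte), 4.84 (B cell) and 3.78 (T and NK cell). Pbx3, a cofactor of HOX proteins, was the strongest with 98.4, 98.3 and 98.8 (chr2:34371752-34373371). Flt3, a receptor tyrosine kinase, had 94.3, 96.5 and 92.9 and Dot1l, the H3K79 methyltransferase recruited by MLL fusions, 94.3, 94.4 and 89.3.

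Meis1, the other cofactor of HOX proteins, had 83.3, 84.6 and 88.5 at its start and a stronger region of 91.0, 85.6 and 97.6 inside the gene, 93834 bp downstream of the start (chr11:18924645-18925624). Hoxa9, the main HOX effector of MLL fusions, had no gene end region in all 3 lists, but FL 3 alone had one. It lay 303 bp from the start at a percentile of 45.5 (chr6:52226915-52227211). The Hoxa9 gene also held a shared region 1161 bp from the start at 82.5, 72.6 and 69.95 (chr6:52225782-52226575). Another shared region lay 1261 bp beyond the gene's other end at 58.9, 50.8 and 69.4. Hoxa7 and Hoxa10 were open at their starts with means of 71.0 and 72.8, and the cluster held about 10 shared regions per 100 kb (10.0 to 10.7 around these 3 genes). Dek itself, intact in these cells, had percentiles of 75.6, 78.4 and 82.2 in a region 293 bp downstream of its start (chr13:47105648-47106804).

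Myc, the growth regulator that these leukemias require, had 6 shared regions within 100 kb. At its end the percentiles were 75.5, 68.9 and 81.3, and a region 9463 bp beyond the gene was stronger at 88.7, 92.9 and 79.5. A blood enhancer cluster of Myc is known far downstream, and the window from 1.5 to 1.9 Mb beyond its start held 11 shared regions, or 2.75 per 100 kb against 1.48 over the genome. The strongest, 1.72 Mb away, had 90.8, 89.1 and 98.3 (chr15:63704209-63705381). The weakest was at 0.470, 12.5 and 32.0, so the window mixed strong and weak sites. Bcl2, Jmjd1c, Myb and Zeb2 had open ends with means from 79.7 to 17.4. The Jmjd1c end region also lay within 1 kb of an end of Reep3. At starts of the promoter table Jmjd1c had a stronger mean of 90.9 and Zeb2 of 38.5. Hoxa9, Cdk6, Eya1, Hmga2 and Runx2 had a gene end region, but not in all 3 lists. Cdk6 did have a region in all 3 lists at a start of the promoter table, with a mean of 62.1. Mef2c, Mecom and Tcf4 had none, while Mef2c and Tcf4 each had 12 shared regions nearby.

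Genes of mature neutrophils and monocytes differed from each other. Of 16 granule and neutrophil genes 7 had an open end, a share of 43.8%, and 7 more had a region there that was not in all 3 lists. Mmp8 led with 81.0, 87.5 and 95.6 and Ms4a3, a marker of granulocyte-macrophage progenitors, had 77.8, 69.4 and 95.7. The Mmp8 region was not at its own start, where the mean was 80.6, against 81.0 at the start of Ms4a3. Ctsg had 78.4, 78.3 and 73.4, while Mpo, the main granule enzyme of this stage, had only 61.5, 46.6 and 45.1 at its start (chr11:87793356-87794077) and Elane 28.0, 50.0 and 55.8. Camp and S100a8 were far higher in FL 3, and S100a8 had 8.72 and 4.02 in FL 1 and FL 2 against 83.7. Ltf, Ngp, Lcn2, S100a9, Cxcr2, Ly6g and Itgb2l missed at least 1 list, and Prtn3 and Mmp9 had no gene end region.

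Monocyte and macrophage genes were open at 12 of 15 ends. Tlr4, the endotoxin receptor, had 92.4, 94.1 and 97.6, Cd68 90.3, 89.1 and 90.5, and Cx3cr1 79.4, 86.4 and 88.3. The Cd68 region also lay within 1 kb of an end of Eif4a1 and that at the outer end of Csf1r within 1 kb of Hmgxb3, so these cannot be assigned to 1 gene. Fcgr1, Ly6c2, Ly86, Mertk, Cd14, Mpeg1, Adgre1 and Itgam had means between 64.8 and 80.7. In all 8 the highest value was in FL 3, but shared regions of any kind sit higher in that list. Their median percentile was 78.5 there, against 62.0 in FL 1 and 64.3 in FL 2. Ccr2, Lyz2 and Ctss missed at least 1 list. By own starts alone 7 of 11 monocyte genes were open. Dendritic cell genes were open at 10 of 12 ends but weakly, with a median percentile of 50.1, and at 6 of 10 own starts. Irf4 and Bst2 were the exceptions at 91.7 and 91.5, Xcr1 shared its region with Fyco1, and the other open ends belonged to Itgax, H2-Ab1, H2-Aa, Cd74, Clec9a, Batf3 and Siglech, while those of Zbtb46 and Cd209a were not in all 3 lists.

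Stem cell genes were intermediate, with 9 of 14 ends open and a median of 1 shared region. Ctnnal1 had 96.5, 99.04 and 93.7, Mllt3, which encodes the AF9 protein itself, 86.0, 94.2 and 89.5, and Hlf 71.5, 80.4 and 71.8. Hoxb4, Procr, Esam, Mycn, Hoxb5 and Gata2 were open with means from 69.8 to 34.1. At a start of the promoter table Gata2 had a higher mean of 65.1, and the Procr region was not at its own start. Slamf1 missed at least 1 list, and Ly6a, Fgd5 and Prdm16 had no gene end region in any.

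Few ends of erythroid and megakaryocyte genes were open. Of 13 erythroid genes 3 had an open end (23.1%), and 7 had no shared region at all. Tfrc, the transferrin receptor that all dividing cells use, was one of the 3 at 98.6, 97.6 and 93.5, and the others were Epor at 26.9, 68.2 and 65.7 and Tal1 at 51.3, 38.7 and 68.6. Gata1 and Klf1, the master factors of the lineage, had no gene end region in any list, nor did Hba-a1, Hbb-bs, Alas2, Slc4a1, Ermap and Rhag, while Hbb-bt had one that was not in all 3 lists. Of 10 megakaryocyte genes Itga2b was open at 72.4, 70.7 and 50.8, Itgb3 at 32.4, 59.4 and 57.6 and Pf4 at 9.88, 13.8 and 26.8. Gp9 had one that was not in all 3 lists, and Gp1ba, Vwf, Gp6, Ppbp, Tubb1 and Treml1 had none.

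Lymphoid and mast cell genes had few open ends, although many had a shared region nearby. Of 13 B cell genes 6 had 0 shared regions, and of 17 T and NK cell genes 5 did. Of 13 B cell genes only Ebf1, at 52.8, 53.8 and 71.8, and Blnk, at 35.5, 58.3 and 57.8, had an open end, and Pax5, Cd79a, Cd79b, Ms4a1, Vpreb1, Igll1, Blk, Rag1, Rag2 and Cd22 did not. T and NK cell genes were open at 6 of 17 ends. Cd3d reached 94.7, 93.9 and 99.3, but the region was not at its own start, and Cd3e and Cd3g next to it had none. Cd5 was open at its start at 89.9, 86.4 and 90.7, Lat shared its region with Spns1, and Tcf7, Cd2 and Bcl11b had means of 49.6, 45.4 and 36.2. Cd4, Cd8a, Lck, Zap70, Gata3, Ncr1, Klrb1c, Il2rb and Tbx21 had no end open in all 3 lists, although Klrb1c had 7 shared regions nearby. Of 12 mast cell, basophil and eosinophil genes only Mcpt8 had an open end, at 15.9, 21.5 and 73.4. Hdc had a region in all 3 lists at a start inside its span, with a mean of 44.1, and 5 shared regions in all. Cpa3, Prss34, Fcer1a, Ms4a2, Epx, Prg2, Siglecf, Il5ra, Tpsb2 and Cma1 had no end open in all 3 lists.

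Markers of the marrow's other cells gave a mixed picture. Endothelial genes were open at 5 of 11 ends (Kdr, Sox18, Eng, Erg and Plvap, means 57.7 to 71.9), but at their own starts only Erg, an ETS factor also used by blood stem cells, was open (1 of 6 with a start in the table). Cdh5 missed at least 1 list, and Pecam1, Tek, Tie1, Emcn and Sox17 had no end region. Stromal genes were open at 2 of 12 ends, Pdgfrb at 50.7, 41.2 and 29.4 and Cxcl12 at 38.4, 14.9 and 19.1, and at none with lists of equal length. Col1a1 and Kitl missed at least 1 list, and Lepr, Col1a2, Col3a1, Sp7, Bglap, Ibsp, Lum and Dcn in none. Among 17 genes of non-blood tissues Apoa1, Myod1, Cdh1 and Epcam had an open end with means from 61.4 to 32.4, Krt14 and Pdx1 missed at least 1 list, and Alb, Ttr, Neurod1, Sox2, Myh6, Ins2, Krt5, Nkx2-1, Olig2, Gfap and Tnnt2 were in none.

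Housekeeping genes had strong ends and few regions per gene. Per 100 kb with flanks their median of 7.53 shared regions was above the 6.76 of the myeloid factors. Of 16 genes 14 had an open end, with a median percentile of 91.1, and the median gene had 1 shared region. Rplp0 had 95.8, 97.0 and 98.8, Tbp 94.0, 94.3 and 97.4, Polr2a 94.4, 94.1 and 95.2, Rpl13a 92.2, 96.3 and 93.6 and Hprt 90.0, 93.4 and 96.6. Pgk1, B2m, Gapdh, Eef1a1, Sdha, Ppia and Tubb5 had means from 93.1 to 80.8. Myeloid factors had a lower median of 82.7 at their ends with 5 regions per gene. Actb, with 6 shared regions nearby, and Ywhaz, with 11, had no end open in all 3 lists, and neither has a start in the promoter table.

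The promoters of 5 lineage loci are shown to compare windows in a shared region with windows in no region, 200 bases before the start as above. Hoxa9 had regions close by, given above, so only its window and not its locus was without a region.
Cebpa, chr7:35119093-35119292, plus strand, in a shared region: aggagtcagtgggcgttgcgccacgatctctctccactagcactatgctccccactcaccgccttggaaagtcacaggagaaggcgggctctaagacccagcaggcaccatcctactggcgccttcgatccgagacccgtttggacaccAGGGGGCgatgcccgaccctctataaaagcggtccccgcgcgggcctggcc
Meis1, chr11:19018970-19019169, minus strand, in a shared region: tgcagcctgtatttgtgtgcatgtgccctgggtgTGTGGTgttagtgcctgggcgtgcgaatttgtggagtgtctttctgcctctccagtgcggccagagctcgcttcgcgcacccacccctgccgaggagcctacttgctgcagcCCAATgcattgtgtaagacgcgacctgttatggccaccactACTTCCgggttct
Mpo, chr11:87793584-87793783, plus strand, in a shared region: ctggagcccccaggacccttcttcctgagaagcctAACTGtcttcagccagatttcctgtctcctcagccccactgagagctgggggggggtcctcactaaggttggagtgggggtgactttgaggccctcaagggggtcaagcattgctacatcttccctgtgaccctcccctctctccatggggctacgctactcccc
Hoxa9, chr6:52227371-52227570, minus strand, in no region: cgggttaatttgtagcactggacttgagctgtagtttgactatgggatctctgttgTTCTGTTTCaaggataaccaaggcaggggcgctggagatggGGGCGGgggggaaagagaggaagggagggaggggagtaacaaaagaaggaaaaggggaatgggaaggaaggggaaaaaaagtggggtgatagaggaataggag
Klf1, chr8:84901782-84901981, plus strand, in no region: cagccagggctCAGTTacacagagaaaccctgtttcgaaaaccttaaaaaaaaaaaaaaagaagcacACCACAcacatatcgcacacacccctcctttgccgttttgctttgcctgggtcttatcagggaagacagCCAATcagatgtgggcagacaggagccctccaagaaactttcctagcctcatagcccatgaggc

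The windows differed in GC content and in CpG dinucleotides, which are dense in promoters of broadly used genes. GC content was 67.3% for Cebpa, 58.3% for Meis1 and 55.3% for Mpo, against 49.7% for Hoxa9 and 51.3% for Klf1. The 300-base windows of Cebpa and Meis1 held 29 and 15 CpGs, those of Hoxa9 and Klf1 4 and 3, and that of Mpo, open but only at a mean percentile of 51.0, held 2. Over all windows the median was 22 CpGs inside shared regions and 4 where no list had a region.

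MicroRNA genes were looked at in a list added after the values were seen. Shared regions were counted within 5 kb of each hairpin, which held for 364 of 1005 hairpins in the RefSeq table (36.2%). The mature forms of those the comparison rests on are given 5′ to 3′ with the seed, bases 2 to 8, in capitals.
miR-223-3p, chrX:96242884-96242905, plus strand: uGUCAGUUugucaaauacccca
miR-142a-3p, chr11:87756903-87756925, plus strand: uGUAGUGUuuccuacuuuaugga
miR-196b-5p, chr6:52230129-52230150, minus strand: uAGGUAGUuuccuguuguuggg
miR-451a, chr11:78073186-78073207, plus strand: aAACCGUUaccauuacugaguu
No seed is shared among these. Mir223, the microRNA of granulocytes, had 2 shared regions, the stronger at 80.8, 79.8 and 80.6 and 2402 bp away. Mir142, present in all blood cells, had 3, the strongest at 84.3, 86.3 and 62.5. Mir196b, which lies in the Hoxa cluster, had 2, and the stronger is the region inside Hoxa9. Mir21a had 3 and Mir17 and Mir10a 2 each, with best means of 86.4, 84.7 and 80.2, and Mir126a had 2 with a best mean of 55.0. No list had a region within 5 kb of the erythroid Mir144 and Mir451a or of Mir181a-1 and Mir181a-2. The same held for Mir155 and Mir146, which were listed as myeloid or pan-blood, and Mir375 had 1 region that was not in all 3 lists.

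Some regions were strong in a part of the lists only, and FL 3 again differed from FL 1 and FL 2. The strongest region of FL 3 that both other lists lacked lay 7395 bp from Smoc1, a calcium-binding matrix protein, at a percentile of 96.6 over 1457 bp (chr12:81018499-81019955). Mcts2, an imprinted retrogene, followed at its end with 93.0, and regions near Zfp956, Prok2, Zfp935 and Glis3 and inside Lamc3 and St3gal2 had percentiles of 89.9 to 92.9. In the reverse direction a region near the olfactory receptor gene Olfr1028 had 88.7 and 76.5 in FL 1 and FL 2 and none in FL 3. Others of this kind were at Zfp516, Fam227a, Tbc1d15, Zmat3 and Btg2, with means of 66.5 to 82.4.

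Regions of FL 1 and FL 2 that FL 3 lacked included groups at 3 loci of the X chromosome. X held 49 of these 844 regions (5.81%), against 1.81% of the shared regions. At Firre, a long non-coding RNA gene whose locus binds CTCF on the inactive X, FL 1 and FL 2 had 24 regions each and FL 3 had 11, and 14 were in both FL 1 and FL 2 but not in FL 3. At the Dxz4 repeat (4933407K13Rik), the boundary of the folded inactive X, 8 regions were in FL 1 and FL 2 only, and FL 3 had 1 region. The region nearest to Pls3 in this set is one of them, at 72.2 and 73.5. At Xist, the RNA that silences the X, 2 of 3 regions were in FL 1 and FL 2 only, 1 of them at 70.02 and 74.5 (chrX:103481487-103482139, nearest coding gene Tsx). The labels give no sex, and its part in these differences was not tested.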

How the data were processed

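ATAC-seq peak lists of 3 control L-GMP libraries were analysed. The tools named, per the submitters' processing notes, are MACS2, Picard, featureCounts, Bowtie2 2.2.9 and Trim Galore 0.4.4, on mm10. Their roles and parameters, and any shift of reads for the transposase, are not given in the sources used here. Each library has its own deposited list in narrowPeak form, and peaks were therefore not pooled. In it the deposited score equals 10 times the −log10 q, truncated, in over 99.9% of rows (99.94% at least). The fold enrichment the authors deposited is a ratio at the summit. Deposited beside it are −log10 p, −log10 q and the summit position. Weakest peaks had a −log10 q of 1.30 to 1.41. None of these values is scaled between libraries, so they only rank peaks inside a list. Read depth is unknown, and list length is the only depth shown.

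Peaks on 20 chromosomes were kept, and peaks sharing 1 bp were merged (Python 3.11.15, pandas 2.3.3, numpy 2.4.6). A region took the highest percentile of each list and the summit of its strongest peak. Gene spans, starts and sequences came from RefSeq tables of GRCm38.p6, the build of mm10, in which 233 of 234 list entries matched. Named genes were the 15 strongest gene end and 15 strongest distal regions (1 per gene, predicted genes left out), the 15 genes with most regions, the 10 with most per 10 kb among those with at least 5, the list genes, 8 fixed genes, and the 8 strongest regions of FL 3 alone and of FL 1 with FL 2. Some list genes are counted but not reported here by name. The members, lists and rules were chosen with earlier results of these data known. No test was run, since all libraries belong to 1 group. The merging was tested on simulated lists. Alternatives covered list length, peak threshold, union, overlap, membership, left-out libraries, gene end distance and rank measure.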

Additional observations from a re-analysis of the deposited data

Results flagged for a closer look

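Peaks outside the 20 chromosomes analysed stood apart in the control lists and had no control samples of their own. FL 1 held 11 peaks on chromosome Y, FL 2 held 14 and FL 3 held 41. All Y peaks of FL 1 and FL 2 lay beyond 90.7 Mb, at the end of the chromosome, where FL 3 held 13, and the other 28 of FL 3 lay before it. At the Y-linked genes Eif2s3y, Uty, Ddx3y and Kdm5d, FL 3 held 1, 4, 3 and 1 peaks with best percentiles of 87.4, 84.9, 87.3 and 38.9, and FL 1 and FL 2 held none. The labels give no sex. Peaks on unplaced and patch sequences numbered 132 in FL 1, 149 in FL 2 and 117 in FL 3.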

How the results depend on the processing

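The number of shared regions stayed within 1.5 times of 37966 in every alternative, from 34406 with lists of equal length to 52146 with a peak in at least 2 lists, and between 40661 and 45265 without 1 library. The share at gene ends was 24.6% to 27.9% without 1 library, 22.5% with a peak in at least 2 lists and 35.2% with a gene end distance of 2500 bp. The share of protein-coding genes with an open end was 52.0% to 53.5% without 1 library, 55.3% with a peak in at least 2 lists, 45.6% at 500 bp and 58.1% at 2500 bp. Wider distances and looser membership admit more regions by construction. Of the 16 gene lists, 13 kept their count within 1.5 times at 500 bp, 11 at 2500 bp, 15 with lists of equal length and 14 with at least 2 lists. With the stronger 50% of regions only 4 did, and erythroid, megakaryocyte, B cell, stromal, mast cell and non-blood lists then had 1, 0, 0, 0, 0 and 0 open ends, while granule genes had 3, progenitor receptors 9, dendritic cell genes 3, stem cell genes 5, housekeeping genes 14 and myeloid factors 13. That alternative, the own starts and the removal of narrow regions were chosen after seeing the data. No paired analysis was possible because all 3 libraries belong to 1 group. Read depth is unknown, so a missing peak sets no limit on how open a site is.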
